A study of Mus musculus with 13 samples.

Results

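The cytochrome P450 genes were described across 48 h of resting mouse skin. Members were all genes whose symbol in the platform annotation, on a probe set (a group of probes read as 1 value) naming 1 gene, is Cyp followed by a number, a letter and a number, with Cyp51 left out. This gave 81 of 19938 genes, each with 1 probe set. Another 13 probe sets with Cyp names fell outside the rule, 7 of them because they name several genes. Of the 81 members, 63 (77.8%) passed a filter that left out the dimmest 25% of all genes by their mean over the arrays, and 18 did not, with mean intensities of 28.5 to 175. The filter lay at a mean intensity of 204, with Cyp11b2 just inside at 208 and Cyp2c39 just outside at 175.

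Whole back skin was taken from male C57Bl6 mice at postnatal day 46, in telogen, the stage at which hair follicles rest. Days had 12 h of light followed by 12 h of dark, and all arrays share this strain, sex and age, with no treatment and no altered gene named in the labels. Skin was taken every 4 h from hour 2 to hour 50, and RNA of 3 mice was pooled for each of the 13 arrays, so a value stands for a pool and p-values measure the spread between pools. Zeitgeber time (ZT) counts hours from lights on: ZT2 had 3 arrays and ZT6, ZT10, ZT14, ZT18 and ZT22 had 2 each, 7 arrays in the light and 6 in the dark. Where values of 13 arrays are given, they are probe set intensities in the order of collection, so they run through ZT2, ZT6, ZT10, ZT14, ZT18 and ZT22, through the same times again, and end with the third ZT2 array.

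Cytochromes P450 are haem enzymes that insert an oxygen atom into a substrate, using electrons passed on from NADPH by the reductase Por or, in mitochondria, by ferredoxin. Some members have fixed tasks in making or clearing bile acids, steroid hormones, retinoic acid and vitamin D, while others act on fatty acids or on foreign chemicals. Hepatocytes hold many of the drug and bile acid enzymes in large amounts, whereas keratinocytes and sebaceous glands have a set of their own that serves the lipid barrier and the turnover of retinoids.

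Promoters of 6 members are shown first, since they differ in what their transcripts did. RefSeq (GRCm38.p6) had a promoter entry for 62 of the 81 members, and the 250 bases before the start site of each were searched on both strands, as were those of 32851 promoters in all. The transcripts of Cyp2c67, Cyp2c70, Cyp3a11 and Cyp8b1 rose and fell with the liver transcript Alb, and their windows hold the letters CAAAGTCCA, a motif of the type bound by the liver factor HNF4. Cyp2e1 and Cyp2b10 passed the test for a 24 h rhythm. Capitals mark CAAAGTCCA and the TATA motif TATAAA, on either strand, in these windows at chr19:39649043-39649292 (Cyp2c67, minus strand), chr19:40187287-40187536 (Cyp2c70, minus), chr5:145879855-145880104 (Cyp3a11, minus), chr9:121916306-121916555 (Cyp8b1, minus), chr7:140763569-140763818 (Cyp2e1, plus) and chr7:25897408-25897657 (Cyp2b10, plus).
Cyp2c67: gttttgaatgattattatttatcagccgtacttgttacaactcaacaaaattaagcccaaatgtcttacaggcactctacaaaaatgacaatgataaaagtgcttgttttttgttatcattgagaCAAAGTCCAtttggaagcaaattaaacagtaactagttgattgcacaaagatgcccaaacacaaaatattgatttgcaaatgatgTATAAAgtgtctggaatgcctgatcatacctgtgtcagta
Cyp2c70: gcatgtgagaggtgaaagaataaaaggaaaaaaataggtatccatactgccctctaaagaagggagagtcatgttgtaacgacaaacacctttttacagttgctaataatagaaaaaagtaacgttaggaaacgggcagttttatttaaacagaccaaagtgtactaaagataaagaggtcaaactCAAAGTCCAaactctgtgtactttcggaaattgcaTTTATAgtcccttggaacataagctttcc
Cyp3a11: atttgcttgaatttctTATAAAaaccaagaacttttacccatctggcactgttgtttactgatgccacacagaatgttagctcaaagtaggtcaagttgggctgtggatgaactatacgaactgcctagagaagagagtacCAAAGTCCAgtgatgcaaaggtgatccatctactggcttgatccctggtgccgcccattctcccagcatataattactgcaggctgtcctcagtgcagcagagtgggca
Cyp8b1: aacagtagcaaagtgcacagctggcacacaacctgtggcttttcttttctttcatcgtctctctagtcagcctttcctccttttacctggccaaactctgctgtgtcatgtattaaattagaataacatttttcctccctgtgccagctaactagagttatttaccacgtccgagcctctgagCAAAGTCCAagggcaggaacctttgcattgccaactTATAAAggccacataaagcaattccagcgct
Cyp2e1: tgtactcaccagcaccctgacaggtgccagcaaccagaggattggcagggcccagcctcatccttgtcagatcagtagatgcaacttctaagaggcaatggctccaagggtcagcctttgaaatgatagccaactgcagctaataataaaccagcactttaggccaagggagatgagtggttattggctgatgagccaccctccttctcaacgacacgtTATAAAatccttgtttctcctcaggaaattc
Cyp2b10: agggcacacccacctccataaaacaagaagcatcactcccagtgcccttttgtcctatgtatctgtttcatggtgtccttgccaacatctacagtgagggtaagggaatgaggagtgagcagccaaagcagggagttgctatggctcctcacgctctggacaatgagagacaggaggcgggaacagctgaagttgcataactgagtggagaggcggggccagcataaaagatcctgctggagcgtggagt

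CAAAGTCCA (reverse complement TGGACTTTG) was present in 7 of the 62 member promoters and in 126 of the 32851 (0.384%). The members were Cyp2c65, Cyp2c67, Cyp2c68, Cyp2c70, Cyp3a11, Cyp3a16 and Cyp8b1. It lay at positions -125 to -117 from the start site in Cyp2c67, -64 to -56 in Cyp2c70 and -67 to -59 in Cyp8b1. Among members whose transcripts followed Alb it was in 5 of 20 promoters, among tested members that did not in 0 of 29, and among the dim members in 2 of 13. TATAAA (reverse complement TTTATA) was in 12.4% of all promoters and in 23 member promoters, 11 of 20, 6 of 29 and 6 of 13 in the same order. Cyp2e1 has it at positions -31 to -26. The E-box CACGTG, the letters bound by the core clock activators, was in 6.02% of all promoters and in 1 member, Cyp2j6. The D-box letters TTATGTAA (reverse complement TTACATAA) and TTACGTAA, bound by the clock-driven factors Dbp, Tef and Hlf, were in 0.819% and 0.113% of all promoters and in 0 of the 62 windows. Cyp7a1 had no promoter entry, so the 62 windows do not cover it. None of these motifs contains another, and a match describes letters and not binding.

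The arrays carried the transcripts of skin and, to a changing degree, of liver. Where the liver transcripts came from was not tested, so following Alb means only moving with them from array to array. All 16 listed genes of epidermis and dermis were measured, and their summed intensity lay between 135161 and 155632. Of 36 listed liver genes 27 were measured, and their sum ran from 20224 on the second ZT22 array (hour 46) to 165729 on the first ZT10 array (hour 10). Alb, which encodes serum albumin, had intensities of 17616, 11121, 18489, 15938, 16090, 10868, 13366, 15020, 8511, 18775, 14672, 5263 and 15053. It was lowest on the second ZT22 and second ZT10 arrays and highest on the second ZT14 and first ZT10 arrays, so the pair of ZT10 arrays stood at opposite ends. Alb varied 3.57-fold, while the mean of the liver list without Alb varied 12.7-fold. Among the listed genes with the widest range, Mat1a ran from 179 to 5571, Uox from 72.7 to 2251, Kng1 from 274 to 6833, Tat from 265 to 6153 and Apoh from 140 to 3012, each lowest at hour 46. Listed kidney genes summed to between 1661 and 2619 and those of small intestine to between 2558 and 3520. Listed pancreas genes summed to between 2634 and 7613, highest on the first ZT2 array, where the pancreatic protease gene Ctrb1 was at 2958 against 181 to 323 elsewhere. Try5, Cpa1, Cpb1, Pnliprp1, Cel, Clps and Zg16 of that list were also highest there. Prss2, Cela1, Cela2a and Cela3b were not, and Try4 was at its lowest there, 106 against 291 to 509. The collagen gene Col1a1 was at 10928 on that array against 16142 to 18388. In pooled whole skin, fewer cells of a type and less RNA per cell cannot be told apart.

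The first comparison asked which members rise and fall with Alb over the 13 arrays. Cyp2c29, Cyp3a11, Cyp4a14 and Cyp7a1, all known from liver, did, and Cyp2b19 and Cyp4f39, known from skin, did not pass the test. The slope of log2(intensity + 16) on log2 Alb was above 0 for 28 of the 63 tested members (44.4%) at an adjusted p under 0.05 (limma with Benjamini-Hochberg adjustment), against 351 of all 14952 genes (2.35%). It was below 0 at an adjusted p under 0.05 for 0 members and for 52 of all genes (0.348%). Without adjustment it was below 0 for 0 members as well, at p under 0.05 in limma. The median slope was 0.31 over the tested members and -0.01 over all genes tested. The slopes of the 28 ran from 0.45 to 3.08, with 25 above 1, and in 23 of them Alb accounted for more than 80% of the variance. From the lowest to the highest array the 28 varied 2.29-fold to 88.7-fold, with a median of 22.2-fold, and the other 35 varied 1.21-fold to 8.37-fold, with a median of 1.66-fold, where the median of all genes tested was 1.45-fold. Of the 28, 27 were lowest on the second ZT22 array. The highest array was the first ZT10 array for 22, the second ZT14 array for 3 and the first ZT2 array for 2. Without the 2 arrays farthest from the median of Alb, the second ZT22 and second ZT10 arrays, Cyp27a1 lost its call, and Cyp2d10 and Cyp2e1 gained one.

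**Figure D1:**
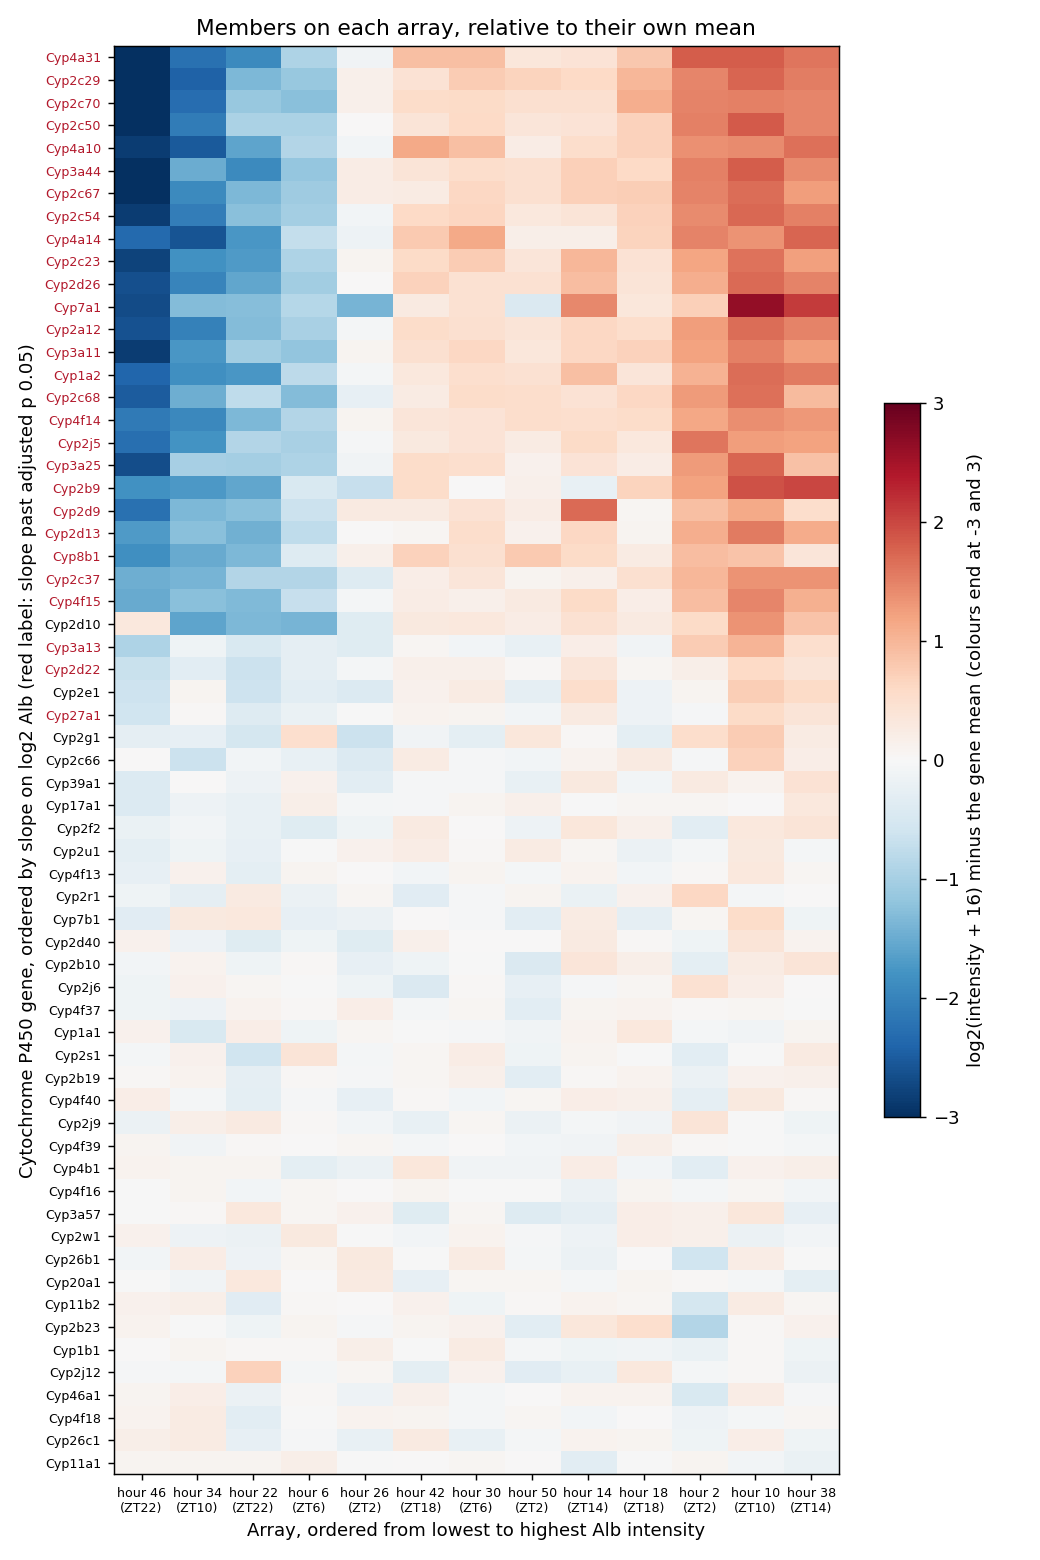
Each row is 1 of the 63 tested members, ordered by its slope on log2 Alb, and each column is 1 of the 13 arrays, ordered from the lowest to the highest Alb intensity. Colour is log2(intensity + 16) minus the mean of the gene over the arrays, red for above and blue for below. Members with red names, 28 in all, passed the test on the slope and run from blue on the left to red on the right, while most rows in the lower part stay pale.

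Members of the Cyp2c subfamily, which metabolise drugs and make epoxides of arachidonic acid, followed Alb in 8 of 9 tested cases, with slopes of 1.66 to 3.06. Cyp2c29 had intensities of 3613, 581, 4381, 1958, 2598, 497, 1447, 2226, 229, 3814, 1767, 103 and 2061. Its slope was 3.06 ± 0.16 (SE, n = 13 arrays), with an adjusted p of 1.45e-08 in limma. The lowest arrays were those with the least Alb, and the dark arrays (103 to 3814) and light arrays (229 to 4381) overlapped. Cyp2c50 measured 2453, 429, 3055, 1141, 1390, 431, 853, 1293, 185, 2382, 1108, 73.0 and 1101. The intensities of Cyp2c67 were 1495, 241, 1691, 866, 877, 196, 615, 808, 127, 1266, 626, 46.3 and 735. Cyp2c70, which makes the muricholic acids that set rodent bile apart, measured 4055, 596, 4124, 2023, 3091, 644, 1590, 2151, 282, 4007, 2128, 152 and 2030. For Cyp2c50, Cyp2c67 and Cyp2c70, whose slopes were 2.80, 2.71 and 2.81, the order of arrays was close to that of Cyp2c29, with hours 46 and 34 at the bottom and hours 2, 10 and 38 at the top. Cyp2c54 had intensities of 2196, 393, 2705, 1062, 1320, 334, 769, 1275, 182, 2353, 1239, 99.5 and 1009. Cyp2c68 had intensities of 576, 83.2, 754, 316, 362, 127, 190, 339, 72.2, 456, 274, 27.4 and 338. The dimmest arrays of Cyp2c68 were near the floor of the measurement, where an offset of 16 shrinks a fold. Cyp2c37 measured 1307, 347, 1674, 727, 917, 343, 496, 845, 239, 1668, 751, 226 and 690. Cyp2c23, an arachidonic acid epoxygenase, measured 2732, 619, 3705, 2376, 1608, 354, 1270, 2023, 325, 2835, 1781, 160 and 1525. Cyp2c37 had the smallest slope of the called Cyp2c genes, 1.66 ± 0.20 (SE, n = 13). The exception in the subfamily was Cyp2c66, with intensities between 242 and 635, a slope of 0.31 ± 0.15 and an adjusted p of 0.882 in limma, although without the second ZT22 array it was 0.78 ± 0.18 with an adjusted p of 0.0224.

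The Cyp3a subfamily, the main drug oxidases under the receptor PXR, followed Alb in 4 of 5 tested cases. Cyp3a11 had intensities of 4592, 852, 5686, 3043, 3167, 944, 2095, 3030, 579, 4704, 2751, 260 and 2494. Its slope was 2.48 ± 0.14 (SE, n = 13), adjusted p 2.76e-08 in limma. Cyp3a44 measured 2881, 436, 3545, 1662, 1517, 254, 1173, 1449, 348, 2681, 1316, 100 and 1411. Cyp3a25 measured 2190, 463, 3020, 1195, 1034, 430, 832, 1263, 441, 1643, 1315, 127 and 971. Both were lowest at hour 46 and highest at hour 10, as Cyp3a11 was. Cyp3a13, a member also known from intestine, measured 674, 320, 813, 451, 362, 281, 302, 370, 354, 563, 410, 200 and 332. Its slope was smaller, 0.79 ± 0.16, and the adjusted p of 0.00970 (limma) rose to 0.0974 without the second ZT22 array. Cyp3a57 did not pass, with intensities between 690 and 1148 and a slope of -0.04 ± 0.13.

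Among the other drug-metabolising members, Cyp1a2, which clears caffeine in liver, had intensities of 2157, 595, 3375, 1938, 1337, 298, 1000, 1475, 280, 3092, 1287, 187 and 1420. Its slope was 2.37 ± 0.23 (SE, n = 13). Cyp1a1, its relative on the same chromosome and a classical target of the dioxin receptor in many tissues, had a slope of 0.05 ± 0.10. The intensities of Cyp2a12 were 1738, 360, 2351, 1125, 1043, 282, 689, 1010, 166, 2047, 1061, 105 and 949. Cyp2b9, which in liver is known as a female-biased gene, measured 2274, 706, 3748, 840, 1565, 320, 597, 994, 287, 3957, 1435, 266 and 1098. Cyp2b9 reached 3748 and 3957 at hours 10 and 38 and stayed at 2274 or below on the other 11 arrays, and its slope was 2.10 ± 0.33. In the Cyp2d subfamily 4 of 6 tested members followed Alb. Cyp2d9, a testosterone hydroxylase known as male-biased in liver, had intensities of 1398, 468, 1655, 2455, 775, 301, 905, 1011, 282, 1078, 898, 145 and 875. It was highest on the first ZT14 array, where Alb ranked 5 of 13. Cyp2d26 measured 2437, 541, 3695, 2181, 1481, 376, 1134, 1560, 274, 3230, 1848, 168 and 1569. Cyp2d13 measured 491, 124, 685, 350, 236, 71.6, 224, 328, 83.5, 498, 234, 58.0 and 247. Cyp2d22 varied less, with intensities of 1723, 1258, 2323, 1982, 1587, 978, 1470, 1709, 1220, 1989, 1704, 960 and 1561, and its slope was 0.64 ± 0.10 against 2.53 ± 0.21 for Cyp2d26 and 1.78 ± 0.22 for Cyp2d13. Cyp2d10 did not pass (slope 0.92 ± 0.38, adjusted p 0.595 in limma). Its intensity at hour 46 was 519, against 128 to 153 at hours 6, 22 and 34, and without hour 46 its slope was 2.63 ± 0.21 with an adjusted p of 2.94e-07.

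The fatty acid hydroxylases of the Cyp4a subfamily, targets of the lipid sensor Ppara in liver, followed Alb in 3 of 3 cases. Cyp4a31 had intensities of 1034, 142, 1035, 377, 505, 62.9, 263, 541, 46.6, 888, 545, 11.7 and 360. This was the widest range among the tested members, 88.7-fold, and the steepest slope, 3.08 ± 0.23 (SE, n = 13). Cyp4a10 measured 2305, 470, 2396, 1288, 1448, 282, 836, 1664, 140, 2814, 1960, 108 and 1035. Cyp4a14 measured 1639, 343, 1503, 655, 923, 161, 514, 1291, 82.9, 1970, 1013, 102 and 648. Both were highest at hour 38, and Cyp4a14 was lowest at hour 34 and not at hour 46. Of the 8 Cyp4f genes, all of them tested, Cyp4f14 and Cyp4f15 followed. Cyp4f14, a leukotriene hydroxylase, had intensities of 1144, 266, 1361, 723, 742, 189, 534, 671, 121, 1262, 653, 104 and 735. Cyp4f15 had intensities of 662, 204, 974, 513, 391, 126, 328, 381, 133, 735, 399, 110 and 413. Their slopes were 2.17 ± 0.19 and 1.65 ± 0.21. Cyp2j5, an epoxygenase known from kidney and liver, was the single follower among 4 tested Cyp2j genes, with intensities of 1681, 265, 1295, 813, 678, 285, 523, 718, 145, 1260, 665, 100.0 and 644. Of 7 tested kidney genes, 0 had a slope past the threshold in limma, and the source of the Cyp2j5 transcripts was not tested.

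The bile acid enzymes split by the size of their response. Cyp7a1, the rate-limiting enzyme of bile acid synthesis, had intensities of 597, 191, 2332, 997, 459, 140, 126, 499, 137, 1593, 435, 42.5 and 261. It reached 2332, 1593 and 997 at hours 10, 38 and 14 and did not exceed 597 elsewhere, and its slope on log2 Alb was 2.52 ± 0.38 (SE, n = 13), adjusted p 0.000528 in limma. Cyp8b1, which directs synthesis towards cholic acid, measured 676, 264, 648, 525, 418, 128, 392, 494, 113, 455, 569, 85.6 and 613. Cyp27a1, a mitochondrial sterol hydroxylase present in many tissues, measured 2004, 1778, 3072, 2469, 1831, 1566, 2034, 2185, 2108, 2703, 2216, 1340 and 1939. Cyp8b1 had a slope of 1.69 ± 0.20 and Cyp27a1 one of 0.45 ± 0.11, the smallest of the called slopes. The call for Cyp27a1 was lost in 10 of its 25 alternatives, among them those without the first ZT6, first ZT10, first ZT14, second ZT2, second ZT6, second ZT14, second ZT18 or second ZT22 array, with adjusted p-values of up to 0.628 in limma. Cyp7b1 and Cyp39a1, which hydroxylate oxysterols, and Cyp46a1, the cholesterol hydroxylase of neurons, did not pass, with slopes of 0.12 ± 0.14, 0.29 ± 0.10 and -0.07 ± 0.10.

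**Figure D2:**
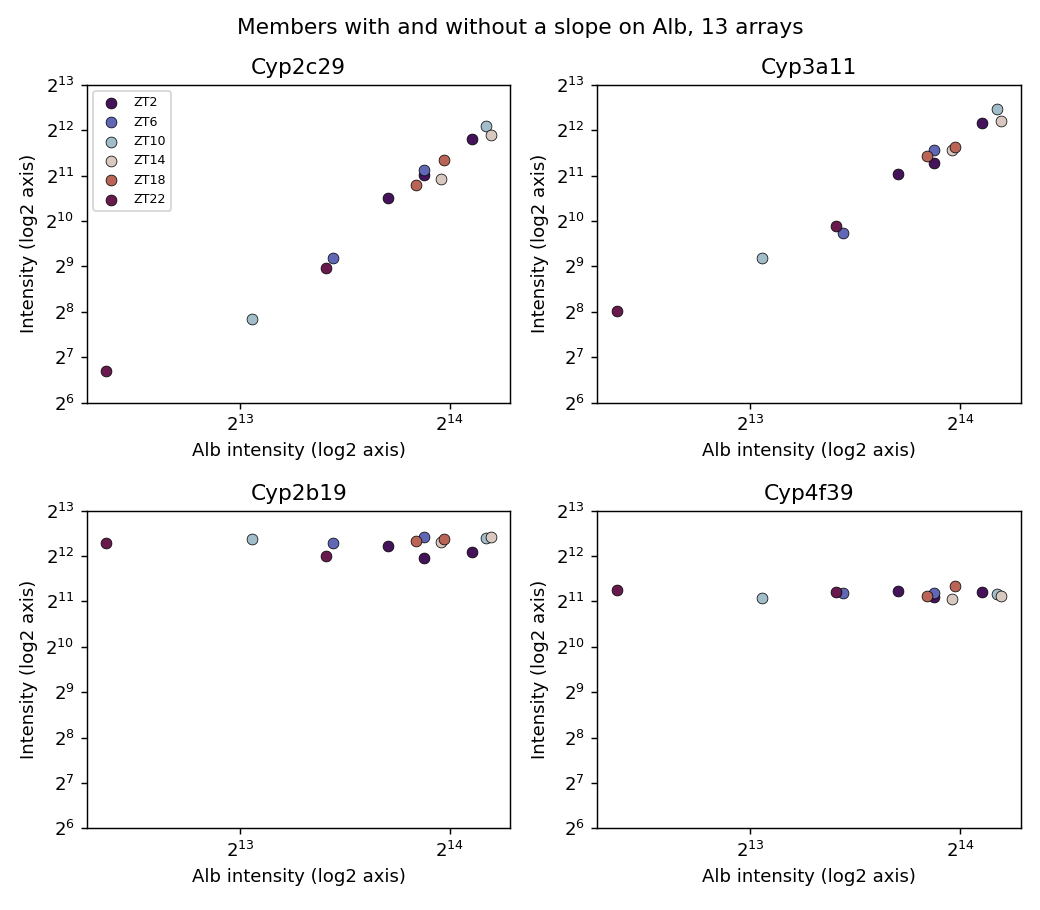
Each point is 1 of 13 arrays, coloured by time of day. Alb intensity is on the horizontal axis and the intensity of the named member on the vertical axis, both log2. The vertical limits are the same in every panel, and the horizontal axis spans fewer doublings than the vertical axis. Cyp2c29 and Cyp3a11 climb with Alb, from 103 to 4381 and from 260 to 5686, while Cyp2b19 (3974 to 5515) and Cyp4f39 (2139 to 2598) span a narrow band.

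With the mean of the other liver genes in place of Alb, 30 members were called, against 415 of all genes (2.78%), and slopes of the 28 fell between 0.21 and 1.45. The added members were Cyp2d10 (slope 0.57, adjusted p 0.0368 in limma) and Cyp2e1 (0.28, 0.0468). The intensity of Alb came to 18775 at its highest, and the highest of any gene on any array was 24362. Whether the upper end of the scale narrows the range of Alb was not tested.

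Among members known from skin, Cyp2b19, Cyp4f39, Cyp2s1 and Cyp4b1 had slopes on Alb near 0. Cyp2b19, a keratinocyte epoxygenase of arachidonic acid, had intensities of 4354, 5022, 5393, 5057, 5315, 4094, 4791, 5491, 5297, 5515, 5137, 5025 and 3974. Its slope was 0.02 ± 0.09 (SE, n = 13), and the second ZT22 array, with the least Alb, stood at 5025 beside a median of 5057. Cyp4f39, which hydroxylates the very long fatty acids of the epidermal acylceramides, measured 2351, 2330, 2281, 2139, 2598, 2377, 2408, 2343, 2142, 2220, 2215, 2451 and 2176. Cyp2b23 measured 1147, 2265, 2176, 2678, 3017, 1939, 2059, 2320, 2127, 2335, 2244, 2285 and 1693. Cyp2b23 had its lowest value, 1147, on the first ZT2 array, the one with the highest sum of listed pancreas genes and the least Col1a1, and its slope was -0.06 ± 0.17. Cyp2s1, an epithelial enzyme that can act on retinoids, had intensities of 645, 1065, 808, 859, 808, 533, 771, 954, 892, 972, 846, 776 and 738. It was lowest on the first ZT22 array and highest on the first ZT6 array, with a slope of 0.03 ± 0.13. Cyp4b1, a fatty acid hydroxylase known from lung and skin, had intensities between 1649 and 2604 and a slope of -0.03 ± 0.11.

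The targets of the dioxin receptor Ahr that skin expresses did not pass either. Cyp1a1 had intensities of 373, 356, 361, 420, 484, 445, 408, 378, 279, 410, 387, 424 and 359. Cyp1b1, which hydroxylates oestradiol and polycyclic hydrocarbons, had intensities of 1058, 1239, 1247, 1112, 1138, 1251, 1381, 1454, 1288, 1121, 1203, 1229 and 1165. Cyp1a1 stood at 279 on the second ZT10 array and between 356 and 484 on the others, and Cyp1b1 ran from 1058 to 1454, with a slope of -0.07 ± 0.07.

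Of the 3 enzymes that clear retinoic acid, Cyp26b1 and Cyp26c1 passed the filter and Cyp26a1 did not. Cyp26b1 had intensities of 625, 994, 1103, 830, 957, 854, 1163, 1122, 1113, 945, 942, 897 and 904. It was lowest on the first ZT2 array and between 830 and 1163 elsewhere. Cyp26c1 ran from 221 to 320, with a slope on Alb of -0.10 ± 0.10. Cyp26a1 had intensities of 73.7, 46.9, 98.4, 76.9, 64.5, 50.6, 62.4, 64.6, 59.4, 54.7, 95.9, 54.9 and 56.2. Among the vitamin D enzymes, Cyp2r1, which makes calcidiol, measured 566, 322, 351, 316, 399, 446, 380, 355, 301, 368, 287, 333 and 390. Cyp27b1, which turns calcidiol into the active hormone, was dim, with intensities of 110, 155, 143, 146, 145, 130, 136, 135, 166, 149, 161, 175 and 163. Cyp2r1 reached 566 on the first ZT2 array and 446 or less on the others, so the array with the least Col1a1 was its highest.

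Of the steroidogenic members, 0 followed Alb in the fit over all arrays. Cyp11a1, which cuts the side chain of cholesterol at the start of steroid synthesis, had intensities of 227, 241, 201, 167, 213, 228, 212, 224, 227, 185, 216, 225 and 216. Its mean was 214 ± 19.9 (SD, n = 13), close to the filter of 204. Cyp11b2 (aldosterone synthase) was between 138 and 249, and Cyp11b1 and Cyp21a1 did not pass the filter, with means of 128 and 135. Cyp17a1, the enzyme at the branch to androgens, ran from 909 to 1505, lowest at hour 46 and highest at hour 38, with a slope of 0.28 ± 0.07 and an adjusted p of 0.0515 in limma. It passed without the first ZT6 array (0.0149) or the first ZT10 array (0.0455), with an offset of 64 (0.0483), with the dimmest 50% of genes left out (0.0486) and with an intensity trend and robust prior (0.0460), so its call depends on the setting. The 7 measured markers of steroid-producing cells summed to between 4466 and 5736, and 0 of their 4 tested genes followed Alb.

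Members that followed Alb and members that did not lay beside each other in the genome. By RefSeq gene order (GRCm38.p6, 80 members placed, with at most 10 other protein-coding genes between neighbours), chromosome 7 holds a run of 11 members: Cyp2s1, Cyp2b10, Cyp2b13, Cyp2b9, Cyp2b23, Cyp2b19, Cyp2g1, Cyp2a22, Cyp2a12, Cyp2f2 and Cyp2t4. Of its 8 tested members, Cyp2b9 and Cyp2a12 followed Alb and 6 did not, Cyp2b9 lying between Cyp2b10 and Cyp2b23 among the tested genes. On chromosome 17 the run of 7 Cyp4f genes has 2 followers, Cyp4f15 and Cyp4f14, side by side. On chromosome 19, 7 of 8 tested genes in the Cyp2c run followed, the exception Cyp2c66 being the first tested gene of the run. Chromosome 15 (Cyp2d, 3 of 5), chromosome 5 (Cyp3a, 3 of 4) and chromosome 4 (Cyp4a with Cyp4b1, 3 of 4, and Cyp2j, 1 of 4) were mixed. On chromosome 9, Cyp1a2 followed and its neighbours Cyp1a1 and Cyp11a1 did not. Probes for close relatives within these runs can share signal, so single genes of Cyp2b, Cyp2c, Cyp2d, Cyp2j, Cyp3a, Cyp4a and Cyp4f are uncertain, and differences between the slopes of neighbours were not tested.

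The second comparison asked which members follow a 24 h rhythm. Cyp2b10, Cyp2e1, Cyp2f2 and Cyp4f13 did, with fitted peaks between 9.42 and 14.3 h after lights on. They made up 4 of the 63 tested members (6.35%), against 318 of all 14953 genes (2.13%), at an adjusted p under 0.05 in limma's F test on a 24 h cosine and sine with Benjamini-Hochberg adjustment. Without adjustment 14 members were under 0.05, and 2770 of all genes. The median fitted peak-to-trough difference was 0.57 in log2 over the members and 0.19 over all genes tested, and the members' median includes the genes that followed Alb. None of the 28 followers passed.

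Cyp2b10, in liver the classical target of the xenobiotic receptor CAR (Nr1i3), had intensities of 2588, 3256, 3781, 4146, 3637, 2898, 2681, 3189, 3439, 4205, 2917, 3030 and 2358. Both ZT14 arrays, at 4146 and 4205, were above the other 11, and the 3 ZT2 arrays, at 2358 to 2681, were below the other 10. The mean was 2542 ± 166 (SD, n = 3) at ZT2 and 4175 ± 42.0 (SD, n = 2) at ZT14. The fitted peak-to-trough difference was 0.61 ± 0.09 in log2 (SE, n = 13), or 1.53-fold, with the peak at 13 h and an adjusted p of 0.00942 in limma. The call held in 25 of 26 alternatives and was lost when the 6 times of day were fitted as a factor (adjusted p 0.106 in limma). Its slope on Alb was 0.10 ± 0.13.

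Cyp2e1, which oxidises ethanol and small solvents, had intensities of 7623, 5820, 11956, 10366, 6513, 4679, 5441, 8556, 7689, 10803, 7902, 4687 and 5976. The ZT22 arrays agreed at 4679 and 4687, the ZT14 arrays stood at 10366 and 10803, and the ZT10 arrays were apart at 11956 and 7689. The fitted difference was 0.99 ± 0.19 in log2 (SE, n = 13), or 1.98-fold, with the peak at 11.6 h and an adjusted p of 0.0371 in limma. The call was lost in 13 of 26 alternatives, with adjusted p-values up to 0.251, among them quantile normalization, the day as a block, and the omission of any 1 of 10 arrays, all but the first ZT2, first ZT6 and second ZT10 arrays. The listed liver genes moved in the same direction at these times, with sums of 20224 and 39236 at ZT22 and 102757 and 143532 at ZT14. The slope of Cyp2e1 on log2 Alb was 0.56 ± 0.17, with 42.9% of the variance and an adjusted p of 0.138 in limma, and it was 1.35 ± 0.28 (0.0113) without the second ZT22 and second ZT10 arrays. With the mean of the liver list as a covariate Cyp2e1 had an adjusted p of 0.00398 in limma.

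Cyp2f2, known for activating naphthalene in the airways, had intensities of 5215, 4998, 8039, 8156, 7233, 5524, 5950, 6468, 6074, 8416, 7781, 5593 and 5821. Cyp4f13 had intensities of 1741, 1802, 2138, 1823, 1599, 1381, 1707, 1794, 1851, 1774, 1608, 1426 and 1633. Cyp2f2 was highest on the ZT14 arrays, at 8156 and 8416, with a fitted difference of 0.59 ± 0.11 in log2 and a peak at 14.3 h (adjusted p 0.0340 in limma). Cyp4f13 was lowest on both ZT22 arrays, at 1381 and 1426, with a difference of 0.41 ± 0.08 and a peak at 9.42 h (adjusted p 0.0300). On log2 Alb, Cyp2f2 had a slope of 0.27 ± 0.12 (SE, n = 13), with 27.4% of the variance and an adjusted p of 0.746 in limma. For Cyp4f13 the slope was 0.16 ± 0.08, with 26.0% of the variance and an adjusted p of 0.964. Cyp2f2 lost its rhythm call in 9 and Cyp4f13 in 11 of 26 alternatives. The count of 4 fell to 1 without the first ZT10, first ZT14, second ZT14 or the third ZT2 array, to 2 without the first ZT22, second ZT6, second ZT18 or second ZT22 array, and to 1 with the collection day as a block. With the 6 times of day as a factor it was 0 in limma, where 44 of all genes (0.294%) were called.

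**Figure D3:**
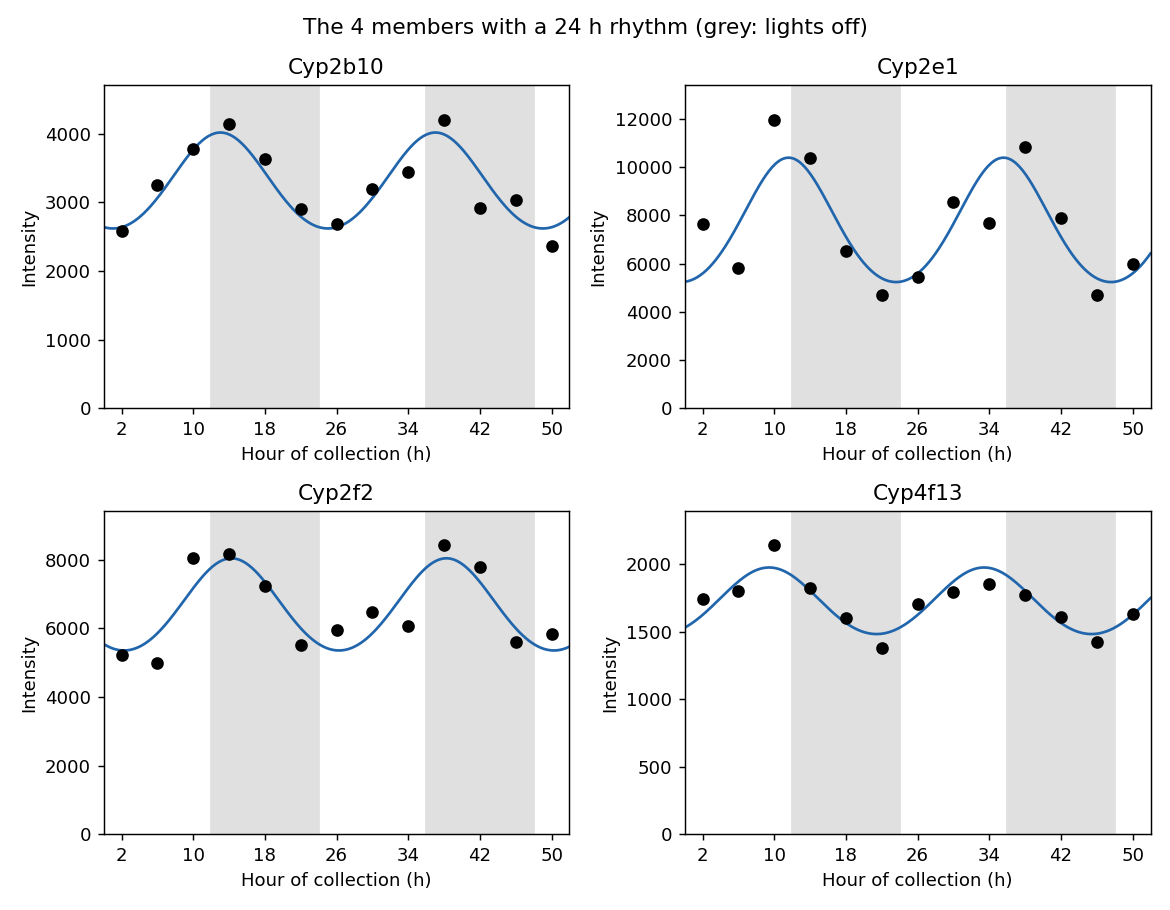
Intensity of the 4 rhythmic members (vertical axis, from 0) on the 13 arrays against hour of collection, 1 point per pool of 3 mice, with the fitted 24 h curve in blue and the hours of dark in grey. Cyp2b10 and Cyp2f2 stood highest at hours 14 and 38, Cyp2e1 and Cyp4f13 at hour 10, and in Cyp2e1 the second ZT10 array (7689) lay below the curve.

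Several members close to the threshold and members known from skin did not pass. Cyp4b1 had a fitted difference of 0.42 ± 0.10 with a peak at 15.7 h and an adjusted p of 0.0899 in limma, which was 0.0156 without the first ZT18 array. Cyp39a1 had an adjusted p of 0.223, and of 0.0362 without the first ZT2 array. Cyp27a1, Cyp1a1, Cyp2b19 and Cyp2s1 had adjusted p-values of 0.104, 0.172, 0.184 and 0.200. Their fitted differences were 0.65, 0.38, 0.31 and 0.48 in log2. Cyp4f39, Cyp1b1 and Cyp26b1 had fitted differences of 0.12 ± 0.07, 0.16 ± 0.10 and 0.30 ± 0.17. The widest fitted differences among the members belonged to genes that followed Alb and came with wide errors: Cyp7a1 with 2.58 ± 0.86, Cyp3a44 with 1.46 ± 1.03, Cyp1a2 with 1.33 ± 0.90, Cyp2c23 with 1.32 ± 0.95 and Cyp4a31 with 1.32 ± 1.18, all with adjusted p-values of 0.233 or more in limma.

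When the mean of the liver list, which holds no P450 gene and here no Alb, was added as a covariate, 6 members (9.52%) were rhythmic, against 350 of all genes (2.34%). The added members were Cyp7a1 and Cyp27a1. Cyp7a1 then had a fitted rhythm of 1.65 ± 0.25 in log2 from trough to peak (SE, n = 13), or 3.15-fold, with the peak at 12.3 h and an adjusted p of 0.00828 in limma. Its values showed this against the liver transcripts of the same arrays: at hours 10, 14 and 38 it was 2332, 997 and 1593, while at hour 2, where Alb was 17616, it was 597, and at hour 26 it was 126 with Alb at 13366. Cyp2c50 on those arrays was 3055, 1141, 2382, 2453 and 853. The call for Cyp7a1 held without each of the 13 arrays in turn, with adjusted p-values of 0.00448 to 0.0280 in limma. With Alb alone as the covariate the difference was 1.68 ± 0.38 and the adjusted p 0.0658, so the call depends on which liver measure is used, and 4 members passed, against 367 of all genes (2.45%). Cyp27a1 had a difference of 0.50 ± 0.10 with a peak at 10.9 h and an adjusted p of 0.0326 in limma. Leaving out 1 array at a time, the call with this covariate was lost in 10 of 13 omissions for Cyp4f13, 7 for Cyp27a1, 3 for Cyp2f2, 1 for Cyp2e1 and 0 for Cyp2b10. Cyp8b1, of the same pathway, did not pass (0.39 ± 0.20, adjusted p 0.395 in limma). The count of 6 fell to 2 without the second ZT10 array and to 3 without the first or the second ZT14 array.

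**Figure D4:**
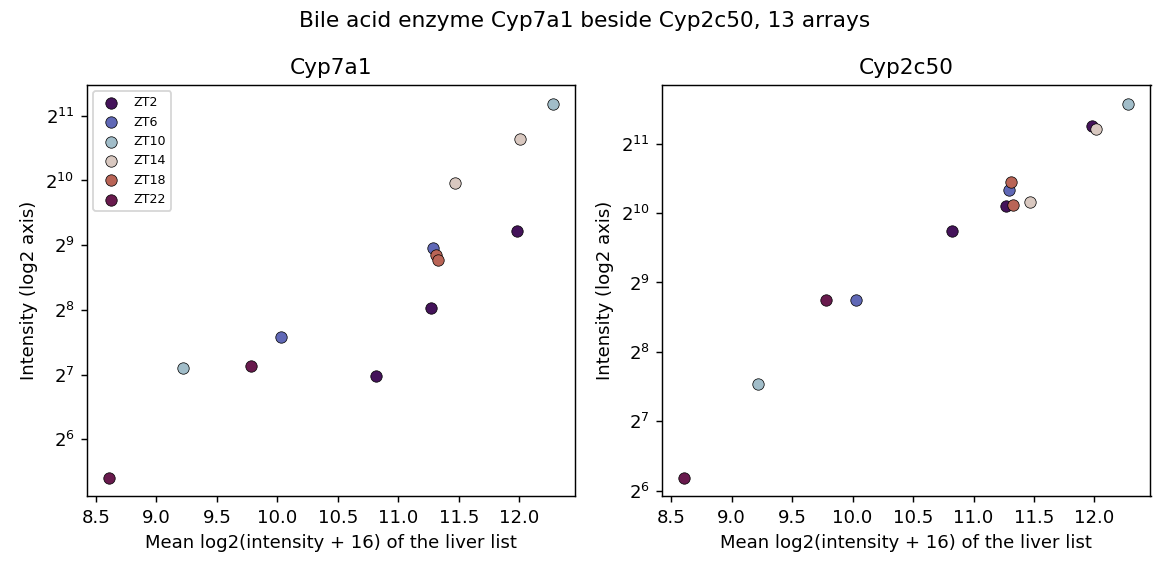
Each point is 1 of 13 arrays, coloured by time of day, with the mean log2(intensity + 16) of the liver list on the horizontal axis and intensity on log2 vertical axes that differ between the panels. Cyp2c50 lies close to 1 line, while Cyp7a1 is scattered: at similar liver means the ZT14 arrays (997 and 1593) lie above the ZT2 arrays (261 and 597).

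The third comparison set the 6 dark arrays against the 7 light arrays. No member passed (0 of 63 in limma with Benjamini-Hochberg adjustment, where 3 of all 14953 genes, 0.0201%, did). Without adjustment 3 members were under 0.05, and 1238 of all genes. Of all genes 0.0134% were called higher and 0.00669% lower in the dark. Cyp1a1 was 0.25 higher in the dark in log2, between 387 and 484 against 279 and 408 in the light, with an adjusted p of 0.439 in limma. Cyp4b1 was 0.25 higher, between 1947 and 2604 against 1649 and 2250, with an adjusted p of 0.477. Cyp4f13 had a difference of -0.18, lower in the dark, and an adjusted p of 0.576. The ranges of dark and light overlapped in each. The rhythmic Cyp2e1, whose fitted peak lay near lights off, differed by -0.05.

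The genes that work with P450 enzymes outside the family were read from fixed lists in the same fits. Of 7 tested genes listed as electron donors, 0 were rhythmic (2 with an unadjusted p under 0.05) and 0 followed Alb. These were Cyb5a, Cyb5b, Cyb5r1, Cyb5r3, Fdx1, Pgrmc1 and Pgrmc2, so the reductase Por was not covered. The mitochondrial cytochrome Cyb5b and the reductase Cyb5r1 had the smallest p-values of the 24 h test, with fitted differences of 0.27 ± 0.09 (adjusted p 0.221 in limma) and 0.24 ± 0.08 (0.233). Of 13 tested xenobiotic receptors and related genes, 0 were rhythmic (4 unadjusted) and 3 followed Alb: Nr1i3, the receptor CAR, with a slope of 1.47 ± 0.26, the bile acid receptor Nr1h4 with 1.06 ± 0.13 and Hnf4a, the liver factor whose motif was searched above, with 1.52 ± 0.22. Nr1i3 had intensities of 440, 176, 1242, 476, 325, 136, 247, 345, 194, 772, 425, 111 and 264, highest at hour 10 and lowest at hour 46. Hours 10, 14 and 38 held the highest values of Nr1i3 and also of its target Cyp2b10, at 3781, 4146 and 4205. At hour 46 Cyp2b10 stood at 3030, and a relation between the 2 genes was not tested. The detoxifying enzyme Nqo1 came closest to a rhythm in that list, with 0.43 ± 0.10, a peak at 3.16 h and an adjusted p of 0.0863.

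Of 31 tested conjugating enzymes, which act on the products of P450 reactions, 11 followed Alb, among them 5 of 6 tested Ugt2b glucuronosyltransferases with slopes of 1.71 (Ugt2b5) to 2.69 (Ugt2b34), and 2 were rhythmic. The glutathione transferase Gstt2 had intensities of 425, 524, 734, 418, 359, 332, 361, 552, 662, 537, 419, 283 and 332, with a fitted difference of 1.03 ± 0.12 and a peak at 9.78 h (adjusted p 0.00211 in limma). The epoxide hydrolase Ephx1, which opens epoxides made by P450 enzymes, measured 2756, 3419, 4229, 3176, 2684, 2748, 2803, 3474, 4143, 3738, 2947, 2681 and 2779, with 0.62 ± 0.08 and a peak at 10.1 h (adjusted p 0.00285). Both were high at ZT10 on both days. The soluble epoxide hydrolase Ephx2 followed Alb, with a slope of 0.53 ± 0.08.

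In retinoid metabolism 2 of 17 tested genes were rhythmic, the retinol dehydrogenase Dhrs9 (0.48 ± 0.09, peak 22.8 h, adjusted p 0.0393 in limma) and the binding protein Crabp1 (0.52 ± 0.11, peak 2.33 h, adjusted p 0.0490), and 0 followed Alb. In steroid metabolism H6pd, which supplies NADPH to a glucocorticoid-activating enzyme, was the single rhythmic gene of 15 (0.65 ± 0.12, peak 10.3 h, adjusted p 0.0275), and Hsd11b1, Hsd17b2 and Akr1c14 followed Alb with slopes of 0.79, 0.86 and 1.63. Of 7 tested genes of vitamin D and sterol handling, 0 were rhythmic (1 unadjusted) and 0 followed Alb. Of 20 tested fatty acid oxygenases and acylceramide enzymes, Ephx1 was rhythmic and Ephx2 followed Alb. The PAR bZIP factors Dbp, Tef and Hlf and their competitor Nfil3, known regulators of P450 genes in liver, were rhythmic in 4 of 4 cases, and 0 followed Alb. Of the cell types of skin, 0 of 11 tested sebaceous genes, 2 of 11 adipocyte genes (Plin4 and Cidec) and 1 of 16 genes of epidermis and dermis (Ivl) were rhythmic, and 0 of each followed Alb.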

How the data were processed

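The members, the gene lists and the tests were chosen with earlier results of these data known. Per the labels, total RNA of whole skin was pooled over 3 mice and hybridised to 1 whole-transcript Affymetrix array per collection. The authors deposited linear probe set intensity values, and the submitters' processing notes name Affymetrix Expression Console 1.1.1 with PLIER 2.0. How arrays were normalized to each other is not stated, and the genome build is not given in the sources used here. Platform annotation named 1 gene for 21789 of 35557 probe sets, several for 1621 and none for 12147, and 21698 were matched to the RefSeq table by gene identifier. The probe set with the highest mean was kept for the 999 genes that had more than 1.

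Intensities were transformed to log2(intensity + 16) without further normalization, and the dimmest 25% of genes were left out. Models were fitted with limma 3.58.1 under R 4.3.3 over all 14953 genes, with Benjamini-Hochberg adjustment and a threshold of 0.05, and tested on simulated data. Folds on this scale understate the change of dim genes. The 24 h test left 10 residual degrees of freedom and the slope on log2 Alb 11. The liver covariate was the mean log2 of the liver list without Alb. Arrays of the same time of day were numbered in order of collection, which pairs no mice. The number of arrays limits the precision. Values in every array are given for members called in a test, the 8 with the highest mean, the 6 with the steepest slope, the 6 with the widest fitted rhythm, and members known from skin, vitamin D and retinoid turnover. Other members are named with ranges, means or slopes. Alternatives were offsets, filters, normalizations, covariates, the collection day as a block and the omission of each array.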

Additional observations from a re-analysis of the deposited data

Results flagged for a closer look

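Within the 7 light arrays and the 6 dark arrays, 126 groups of values (the 63 tested members in light and in dark) were searched for a single array far from the rest, and 11 stood apart. If the groups were independent, chance alone would give about 1 in 20, or 6.30 here. The members share the same arrays, so the groups are not independent and the 11 cannot be judged against that number. Of the 11, 6 were on the first ZT22 array.

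Among the dark arrays, the first ZT22 array was low for Cyp11b2 at 160, where the other 5 lay between 214 and 227. It was low for Cyp2b19 at 4094, against 5025 to 5515, and for Cyp2d10 at 153, against 498 to 764. Cyp2d40 stood at 238 there, against 320 to 380, and Cyp4f40 at 264, against 336 to 383. Cyp2j9 was high on that array at 992, against 701 to 790. In the light, Cyp2d10 was also low at hours 6 and 34 (148 and 128), while at hour 46, with the least Alb, it stood at 519.

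Among the light arrays, Cyp27a1 was high on the first ZT10 array at 3072, against 1778 to 2185. Cyp1a1 was low on the second ZT10 array at 279, against 356 to 408. The first ZT2 array was low for Cyp26b1 at 625, against 904 to 1163, and high for Cyp2r1 at 566, against 301 to 390. Cyp2j12 was low on the third ZT2 array at 761, against 925 to 1066.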

How the results depend on the processing

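The count of rhythmic members was 4 and stayed at 3 or 4 under other offsets, filters, normalizations, the mean of all probe sets of a gene, an intensity trend and the omission of the 2 arrays farthest from the median of Alb. It was 1 with the collection day as a replicate block, and 0 with the 6 times of day as a factor. The numbers of the arrays share no animal, so this block stands for the day alone. Leaving out 1 array gave 1 to 4. With the liver list as a covariate the count of 6 became 2 to 7 when 1 array was left out, an alternative chosen after seeing the data. The count of members following Alb, 28, was 27 to 28 without 1 array, 28 with the replicate block and 23 to 30 under the others, 23 where the dimmest 50% of genes were left out. The dark against light count was 0 in every alternative, the liver covariate, also chosen after seeing the data, included, and 0 to 0 without 1 array. Single-gene comparisons, 850 in all, covered the members called in a main fit and the rhythm of Cyp7a1 and Cyp27a1, added because they gained a call. Of these, 803 kept call and direction, 45 lost the call, 2 gained it and 0 changed direction. The 2 gains were Cyp7a1 and Cyp27a1. Gains by other members, among them Cyp17a1, Cyp2d10, Cyp2e1, Cyp2c66, Cyp39a1 and Cyp4b1, are outside this count. The arrays' median shift was at most 0.07 in log2. Each array holds a pool, so spread between mice was not measured. Members under the filter, Cyp26a1 and Cyp27b1 among them, are limited by signal near the dim end, and 18 members have no test. Without the filter, Cyp2d11 also followed Alb.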

Other observations

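The 13 probe sets with Cyp names outside the rule held further members of the family, and 7 of them had a slope on log2 Alb above 1. The probe set shared by Cyp2a5 and Cyp2a4, enzymes that act on coumarin and steroids, measured 1174, 479, 3528, 1826, 724, 197, 378, 952, 281, 3651, 1627, 94.1 and 800 in order of collection, with its highest values at hours 10 and 38. At hour 2, where Alb was 17616, it stood at 1174. Cyp4a12a and Cyp4a12b, fatty acid hydroxylases known as male-biased in liver and kidney, were highest on the first ZT14 array, at 1573 and 1472. On the other 12 arrays Cyp4a12a lay between 123 and 885 and Cyp4a12b between 143 and 750. Cyp2d9 was also highest on that array, at 2455, with 1655 at hour 10 as the next value. The first ZT14 array ranked 5 of 13 for Alb. Cyp51, which makes sterols in every cell and was left out of the rule, ran from 1378 to 2179, highest on the first ZT22 array, with a slope of -0.04 on log2 Alb. Cyp2ab1 and the pseudogene Cyp4f41-ps were dim, at 137 to 183 and 130 to 193, each with a slope of -0.04. The probe set shared by Cyp4a32, Cyp4a31 and Cyp4a10 had a slope of 3.02, beside 3.08 for Cyp4a31 and 2.77 for Cyp4a10 on their own probe sets.

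Among the 18 dim members, Cyp2d11 had intensities of 21.9 to 205, Cyp2c39 of 27.7 to 425, Cyp2a22 of 33.9 to 348 and Cyp2c38 of 18.3 to 167. In a fit without the filter their slopes on log2 Alb were 0.99 ± 0.23, 1.27 ± 0.34, 1.32 ± 0.35 and 1.01 ± 0.27 (SE, n = 13), with adjusted p-values of 0.0278, 0.0748, 0.0751 and 0.0826 in limma. No dim member was rhythmic in that fit (0 of 18 in limma, and 0 with an unadjusted p under 0.05).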
